A study of Mus musculus with 6 samples.

Results

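A set of 40 genes of the contractile apparatus and muscle metabolism was followed through rib cage RNA of mouse embryos. The genes were chosen by function, as parts of the thin filament, the Z-disc, the myosin light chains, the calcium machinery and the muscle enzymes, with the myosin heavy chains left out. Each was matched by symbol to the 55487 gene IDs of the count table, and all 40 were found and passed the low-count filter that left 26596 genes to test. RNA-Seq was carried out on the rib cages of 6 embryos at 16.5 dpc. The 3 control embryos, E420, E434 and E435, are labelled wild type, with no alleles given, and the study's methods state that littermates were compared. The 3 mutant embryos, E423, E433 and E440, carry the genotype Col2-cre;Foxc1-/-;Foxc2-/-, in which floxed alleles of the transcription factor genes Foxc1 and Foxc2 were removed by a recombinase under the Col2 promoter, active in chondrocyte progenitors. The mothers carried floxed alleles of both genes and the fathers carried Col2-cre with 1 deleted copy of each, on a mixed background, and which of these embryos shared a litter is not given. Recombination in muscle was not measured here, and the whole dissected rib cage was sequenced. The study chose this tissue because parts outside the skeleton could be removed from it well. A different number of muscle cells, a different amount of muscle left by dissection and a different amount of muscle RNA per cell therefore cannot be told apart.

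In striated muscle, thin filaments of actin slide past thick filaments of myosin. Tropomyosin lies along the actin and covers the sites that myosin binds, and the troponin complex moves it when calcium binds to troponin C. Alpha-actinin anchors the thin filaments in the Z-disc, and titin spans from the Z-disc to the middle of the sarcomere. Calcium is stored in the sarcoplasmic reticulum on calsequestrin, released through the ryanodine receptor and pumped back by SERCA. Many of these proteins exist as paralogues used in fast fibres or in slow fibres and heart, and fetal muscle holds a mixture in which cardiac and slow forms are common before the adult fast forms build up.

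The deleted genes were examined first. Foxc1 was counted at 23.1, 36.9 and 24.2 CPM (counts per 1000000, with library sizes scaled by the trimmed mean method of edgeR) in E420, E434 and E435, and at 3.56, 9.61 and 3.51 CPM in E423, E433 and E440. Values are given in this order of embryos throughout. Foxc2 was counted at 1.99, 4.83 and 3.22 CPM among controls and 0.650, 1.14 and 0.737 among mutants. For both genes the highest mutant lay below the lowest control. Library totals ran from 37853988 to 47794799 counts. A pair of libraries in each group lay close together. Over genes, the SD of the log2 ratio was 0.156 between E420 and E435 and 0.135 between E423 and E440, against 0.504 to 1.77 for all other pairs. The chi-square per degree of freedom between counts was 8.43 and 3.19 for the close pairs and 143.9 to 203.7 for the other pairs within a group. Each read end was counted separately, which raises this value, and it cannot show whether libraries come from separate embryos. The close libraries carry different embryo numbers in the labels and were kept as separate embryos for that reason. E433 and E434 stood apart from the others of their groups, and results are given with and without them. The summed level of 13 cartilage markers was 27570 CPM in E434 and 10270 CPM in E433, against 2021 to 2126 CPM in the other controls and 709 to 733 CPM in the other mutants. The summed level of 10 keratinocyte markers ran the other way, at 17.96 CPM in E434, 5217 to 6035 CPM in the other controls, 3138 CPM in E433 and 27480 to 27590 CPM in the other mutants. In E434, Flg and Dsg1a among them had no count.

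Because fast and slow paralogues are the core of the comparison, the coding sequences of 12 pairs were aligned to see whether reads of 42 bases could tell them apart. The stretches below are shown because they are where alpha-actinin and SERCA paralogues are hardest to separate. They are taken from the GENCODE transcripts on GRCm38, 84 coding bases around the longest run that both genes share, and capitals mark the bases that differ. The Actn3 stretch lies in exon 10 of 21 at chr19:4867850-4867933 and the Actn2 stretch in exon 11 of 22 at chr13:12291697-12291780, the Atp2a1 stretch in exon 16 of 23 at chr7:126448166-126448249 and the Atp2a2 stretch in exon 15 of 21 at chr5:122459980-122460063, all on the minus strand.
Actn3: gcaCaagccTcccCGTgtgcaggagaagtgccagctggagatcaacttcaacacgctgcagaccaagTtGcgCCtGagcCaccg
Actn2: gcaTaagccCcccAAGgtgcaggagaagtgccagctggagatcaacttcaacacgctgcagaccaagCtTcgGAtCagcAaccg
Atp2a1: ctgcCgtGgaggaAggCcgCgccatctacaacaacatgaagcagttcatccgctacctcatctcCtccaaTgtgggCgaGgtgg
Atp2a2: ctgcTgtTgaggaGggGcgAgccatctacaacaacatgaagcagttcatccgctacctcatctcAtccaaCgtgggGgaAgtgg
Actn3 and Actn2 differed at 11 of these 84 bases, and Atp2a1 and Atp2a2 at 9. The longest shared run was 51 bases for the alpha-actinins and 44 bases for the SERCA pair, so only reads lying wholly inside those runs were ambiguous. Of the transcript windows of 42 bases, 0.350% in Actn3 also occurred in Actn2 and 0.0863% in Atp2a1 also occurred in Atp2a2. In the remaining 10 pairs no window was shared. The actins were the closest pair over the whole coding sequence, with 86.2% identity between Acta1 and Actc1, yet their longest shared run was 29 bases. The least alike were Myoz1 and Myoz2, at 50.5%. Other overlaps were larger. Exons of the ubiquitin-conjugating enzyme gene Ube2c covered 74.0% of the exon bases of Tnnc2, and since strand was not used in counting, reads from that stretch could not be assigned to either gene. Exons of Adora1 covered 49.9% of Mybph, and other genes covered 31.9% of Mb, 21.9% of Atp2a1 and 15.5% of Ckm, with 1309 of 6550 bases covered in Cacna1s. In the transcripts, 24.6% of the windows of Tpm3 also occurred in Tpm3-rs7 and 12.9% of those of Myl1 in Mylf-ps, so the counts of these genes are less certain.

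Many of the genes moved together between libraries, so the sequence before their starts was also read. RefSeq promoter windows on GRCm38.p6 were found for 33 of the 40 genes, with 41 start sites, and the 250 bases before each start were searched on both strands for the E-box CANNTG, the MEF2 site, the CArG box and TATAAA. The E-box is bound by the myogenic factors, the MEF2 site by MEF2 proteins and the CArG box by serum response factor. No entry was found for Actn3, Tnnt3, Tnni2, Neb, Atp2a2, Myoz1 and Myot. The 6 windows below are shown as the actin pair with a CArG box each, Ttn and Casq2 with a MEF2 site each, Mybpc2 as the gene with the largest fold change, and Tnni1 as a slow gene with hardly any. Capitals mark every match to any of the motifs. The windows lie at chr8:123894776-123895025, chr2:114052876-114053125, chr2:76982548-76982797 and chr7:44524670-44524919 on the minus strand and at chr3:102086165-102086414 and chr1:135799171-135799420 on the plus strand, and each sequence is written toward its gene. In the annotation of the count table those of Acta1, Ttn, Casq2 and Mybpc2 lie outside the gene, while those of Actc1 and Tnni1 lie inside it, before an inner start, with 12 and 19 of their bases in exons.
Acta1: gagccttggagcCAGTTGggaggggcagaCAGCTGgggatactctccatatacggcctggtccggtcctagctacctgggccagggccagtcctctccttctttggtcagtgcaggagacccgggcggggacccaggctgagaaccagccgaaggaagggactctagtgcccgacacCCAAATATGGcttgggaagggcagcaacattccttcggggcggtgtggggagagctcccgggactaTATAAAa
Actc1: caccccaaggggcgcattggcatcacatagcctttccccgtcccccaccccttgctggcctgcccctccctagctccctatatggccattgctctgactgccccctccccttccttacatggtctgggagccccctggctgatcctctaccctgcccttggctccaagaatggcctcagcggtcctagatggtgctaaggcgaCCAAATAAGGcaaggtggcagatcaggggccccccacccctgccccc
Ttn: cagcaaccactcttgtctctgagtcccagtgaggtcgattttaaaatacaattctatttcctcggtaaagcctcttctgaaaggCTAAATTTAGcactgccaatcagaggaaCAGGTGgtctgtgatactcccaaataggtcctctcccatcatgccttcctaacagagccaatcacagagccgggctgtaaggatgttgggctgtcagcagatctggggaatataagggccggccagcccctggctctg
Casq2: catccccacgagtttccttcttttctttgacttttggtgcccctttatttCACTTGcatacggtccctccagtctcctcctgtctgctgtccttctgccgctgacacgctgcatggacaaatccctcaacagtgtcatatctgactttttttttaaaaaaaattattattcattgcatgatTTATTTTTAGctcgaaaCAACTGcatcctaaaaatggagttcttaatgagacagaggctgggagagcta
Mybpc2: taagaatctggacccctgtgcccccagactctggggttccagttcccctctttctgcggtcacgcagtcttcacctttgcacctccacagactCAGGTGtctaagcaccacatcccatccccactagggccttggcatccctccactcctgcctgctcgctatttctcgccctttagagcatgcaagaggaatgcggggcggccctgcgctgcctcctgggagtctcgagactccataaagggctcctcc
Tnni1: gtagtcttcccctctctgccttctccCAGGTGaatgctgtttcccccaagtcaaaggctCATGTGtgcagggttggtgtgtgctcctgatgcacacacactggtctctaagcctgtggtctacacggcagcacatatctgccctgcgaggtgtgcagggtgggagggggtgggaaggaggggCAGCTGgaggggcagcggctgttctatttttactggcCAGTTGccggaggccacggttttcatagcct
The CArG box ended 63 bases before the RefSeq start of Acta1 and 37 bases before that of Actc1. The MEF2 site ended 156 bases before the start of Ttn and 59 bases before that of Casq2. Mybpc2 held 1 E-box, 151 bases before its start, while Tnni1 held 4. A CArG box was present in 5 of the 41 windows (12.2%), against 1.47% of all 32851 windows in the genome table, and these belonged to Acta1, Actc1, Myl3 and both starts of Ldb3. The Ldb3 windows overlap and hold the same box, so that 4 of the 33 genes (12.1%) had one, against 1.62% of all 27025 genes with a window. A MEF2 site was present in 4 (9.76%), against 2.92% of all windows, in Casq2, Myoz2, Pvalb and Ttn. An E-box was present in 35 (85.4%), against 66.2% of all windows, and TATAAA in 5 (12.2%), against 12.4%. No motif was held by all of the genes, and those with a MEF2 site were fast (Pvalb), slow or cardiac (Casq2, Myoz2) and shared (Ttn), while those with a CArG box were slow or cardiac (Actc1, Myl3) and shared (Acta1, Ldb3). These matches are letters in a window and were not tested for binding.

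The muscle genes made up a sizeable part of the RNA. On the TPM scale of the RSEM tables, transcripts per 1000000 after correction for transcript length, the 40 genes held 3.64% of the transcripts in E420, 5.28% in E434 and 3.74% in E435, and 6.50%, 4.57% and 6.47% in E423, E433 and E440. Mylpf, the regulatory light chain of fast fibres, took the largest share of this sum, 15.9% to 18.5% in the 6 libraries. Acta1, the skeletal muscle actin, took 11.9% to 15.4%. The share of Tnnc2, the fast troponin C, was 7.91% to 9.11%. Myl1, the fast essential light chain, took 7.18% to 7.72%, and Actc1, the cardiac actin, which fetal skeletal muscle also uses, took 6.99% to 7.63%. On the scale of counts per kilobase of exon (RPKM), Acta1 came first with 21.3% to 26.7% and Tnnc2 took 0.772% to 0.948%, far below its TPM share, beside the 74.0% of its exon bases that Ube2c also covered. At the other end, the cardiac troponin I gene Tnni3 was counted at 0.507 to 1.06 CPM and Pvalb, a calcium buffer of adult fast fibres, at 0.139 to 1.86 CPM in the 6 libraries.

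The makeup of the sum shifted less than its height. The summed level of the 40 genes was 26450 CPM in E420, 39820 in E434 and 27370 in E435, and 51730, 32460 and 50900 CPM in E423, E433 and E440. The controls and mutants overlapped, since E433 lay below E434. The 11 fast genes took 37.6% to 39.9% of the summed RPKM in the 6 libraries, while the 14 slow or cardiac genes took 23.2% to 24.7% in the controls, 20.1% in both E423 and E440, and 25.04% in E433. The 15 genes shared by the fibre types took 35.4% to 39.1% in the controls and 37.4% to 41.4% in the mutants.

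**Figure D1:**
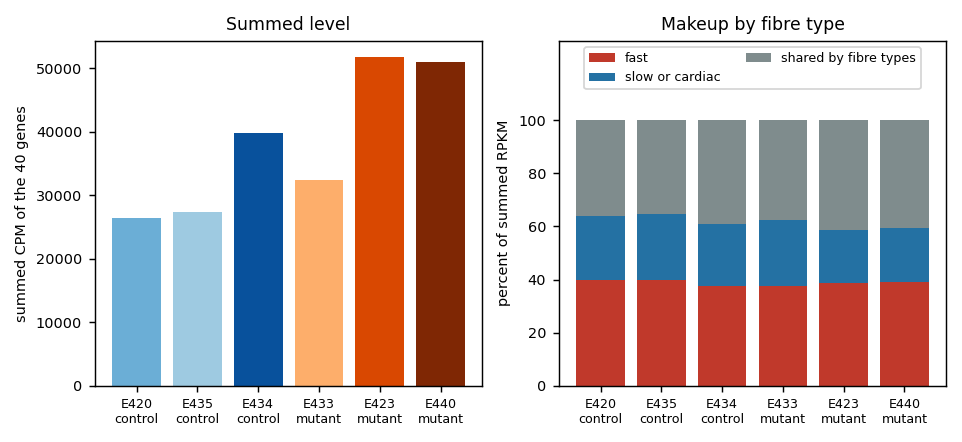
Left, summed CPM of the 40 genes in each library (bars, from 0). Right, percent of their summed RPKM held by fast, slow or cardiac, and shared genes. E423 and E440 have the tallest bars, at 51730 and 50900 CPM, and the smallest slow or cardiac share, at 20.1%, while mutant E433 lies below control E434.

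When mutants were compared with controls, most of the muscle genes had higher mean levels in the mutants, but none passed the limits. With the quasi-likelihood test of edgeR on all 6 libraries, 0 of the 40 genes were called higher and 0 lower at limits of 0.1 on the adjusted p and 1 on the size of the log2 fold change, where 0.0338% of all genes tested were called higher and 0.0301% lower. At an unadjusted p under 0.05, 9 of the 40 were higher and 0 lower, against 5.9% and 4.7% of all genes. The log2 fold change was above 0 for 35 of the 40 genes, against 51.2% of all genes, with a median of 0.50 against 0.01 over all genes, and ran from −0.15 for Mb to 2.46 for Mybpc2. All 3 mutant libraries lay above all 3 control libraries for Actn3, Tpm3, Myl2 and Myl4, 4 of the 40 and a share near the 6.81% of all genes that did so, and for 0 genes did the mutants all lie below, where 8.21% of all genes did. DESeq2 called 1 of the 40 higher, Actn3 (adjusted p = 0.000316), where 1.33% of all genes were called higher. With no limit on the fold it gave adjusted p-values under 0.1 to Actn3, Myl2, Myoz1 and Tnnc2 and unadjusted p-values under 0.05 to 22 of the 40, where 2.15% and 6.74% of all genes were higher by those rules.

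The libraries did not split by genotype for most of these genes. In 22 of the 40 genes E420 and E435 were lowest, E433 and E434 lay between, and E423 and E440 were highest, an order held by 3.71% of all genes tested and chosen after the values were seen. Mutant E433 lay below control E434 in 32 of the 40 genes, against 47.6% of all genes. E423 and E440 lay above E420 and E435 in 34 of the 40 and below them in 1, Mybph, and 30.3% of all genes had the first order. Leaving out E433 alone gave 6 genes called higher, Actn3, Casq1, Ckm, Mybpc2, Myoz1 and Pvalb, with 2.84% of all genes called higher, and leaving out E434 alone gave 1, Ttn (log2 fold change 1.45, adjusted p = 0.0935), with 0.0308% of all genes. Leaving out both gave 14 genes called higher and 0 lower, with 5.66% of all genes called higher, but each group then held only its pair of close libraries. The cartilage and keratinocyte markers differed between the same libraries, as given above, and their part in these differences was not tested.

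**Figure D2:**
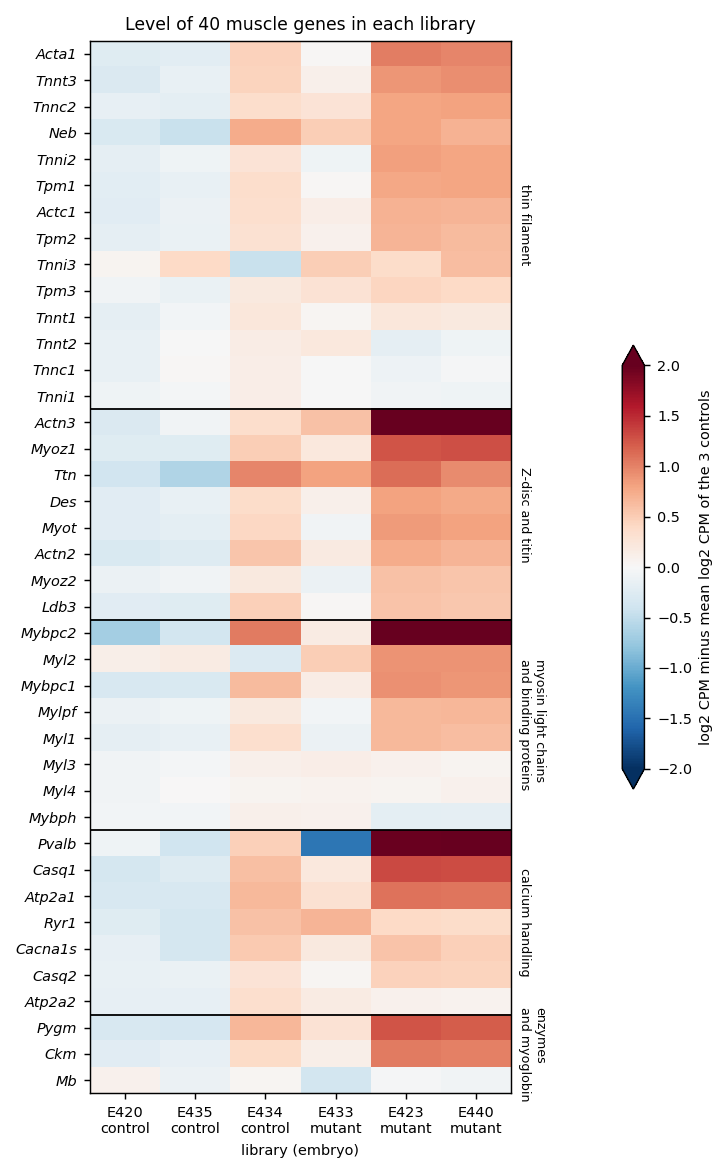
Log2 CPM of each of the 40 genes (rows, grouped by role) in each library (columns), minus the mean log2 CPM of the 3 controls. E423 and E440 are the reddest columns, E420 and E435 the bluest ones, and control E434 and mutant E433 lie between, as in 22 of the 40 genes. Colours stop at 2 either way.

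In the thin filament, the actin that dominates mature skeletal muscle and its cardiac partner both followed this order. Acta1 (ENSMUSG00000031972.5, chr8:123891769-123894751) was counted at 4368, 7072 and 4449 CPM in E420, E434 and E435 and at 10470, 5264 and 10110 CPM in E423, E433 and E440. The groups overlapped at E433 and E434, and the log2 fold change was 0.70 ± 0.33 (SE), with an edgeR adjusted p of 0.516. Actc1 stood at 2572, 3799 and 2761 CPM among controls and 4859, 3284 and 4787 among mutants, for a log2 fold change of 0.50 ± 0.23. Of the tropomyosins, which lie along these filaments, Tpm1 and Tpm2 had log2 fold changes of 0.55 ± 0.26 and 0.47 ± 0.22. Tpm3, the slow fibre form, was counted at 211, 255 and 202 CPM among controls and 298, 269 and 293 among mutants. The lowest mutant lay above the highest control by a small step, and the log2 fold change was 0.36 ± 0.11 (edgeR unadjusted p = 0.0151, adjusted p = 0.395). Neb, the giant protein that runs the length of the thin filament, was counted at 273, 562 and 248 CPM among controls and 583, 472 and 544 among mutants, so that control E434 lay among the mutants.

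Among the troponins the fast forms had the larger fold changes. The genes for troponin I and troponin T lie side by side in pairs, the fast Tnni2 and Tnnt3 at chr7:142441808-142444410 and chr7:142498836-142516009, the cardiac Tnni3 and slow Tnnt1 at chr7:4518305-4524229 and chr7:4504570-4516382, and the slow Tnni1 and cardiac Tnnt2 at chr1:135779434-135810989 and chr1:135836354-135852260 (GRCm38). Tnnt3, the fast troponin T that binds tropomyosin, was counted at 1337, 2225 and 1489 CPM among controls and 3034, 1754 and 3123 among mutants, for a log2 fold change of 0.65 ± 0.29. Tnni2, the fast inhibitory subunit, was counted at 904, 1239 and 973 CPM among controls and 1824, 967 and 1786 among mutants, with E433 inside the control range and a log2 fold change of 0.56 ± 0.27. Tnnc2, the fast calcium-binding subunit, stood at 86.3, 124 and 83.9 CPM among controls and 167, 117 and 168 among mutants, for a log2 fold change of 0.62 ± 0.21 (edgeR adjusted p = 0.413). In E423 and E440 each of these fast genes was about 2 times its level in E420 and E435, with ratios of 2.18, 1.92 and 1.97. Of their slow and cardiac counterparts, Tnnt1, Tnnt2, Tnni1 and Tnnc1 had log2 fold changes near 0, while Tnni3 did not. Tnnt1 was counted at 630, 831 and 689 CPM among controls and 836, 731 and 815 among mutants. Tnnt2 was counted at 331, 406 and 362 CPM among controls and 323, 423.2 and 342 among mutants. Tnnt2, the cardiac troponin T that early skeletal muscle also makes, was thus highest in mutant E433 and lowest in mutant E423. Tnni1 and Tnnc1 ran from 507 to 591 CPM and from 365 to 441 CPM over the 6 libraries. Their log2 fold changes were 0.15 ± 0.13 for Tnnt1, −0.01 ± 0.14 for Tnnt2, −0.06 ± 0.10 for Tnni1 and −0.05 ± 0.10 for Tnnc1. The signs of the last 3 changed when libraries were left out in turn. Tnni3, at 23 to 49 counts a library, had a log2 fold change of 0.46 ± 0.27 and overlapping groups.

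At the Z-disc, Actn3 (ENSMUSG00000006457.4, chr19:4861216-4877909) had the largest fold change. This gene for the alpha-actinin of the fastest fibres was counted at 16.8, 26.3 and 19.7 CPM in E420, E434 and E435 and at 88.0, 30.97 and 86.7 CPM in E423, E433 and E440. All mutants lay above all controls, but E433 only slightly so, and the log2 fold change of 1.71 ± 0.41 had an edgeR adjusted p of 0.339. Its ratio was 4.79 between E423 with E440 and E420 with E435, and 1.18 between E433 and E434. Actn2, the alpha-actinin of all striated muscle, was counted at 701, 1272 and 717 CPM among controls and 1439, 977 and 1378 among mutants, for a log2 fold change of 0.50 ± 0.28. The calsarcins, which bind calcineurin to alpha-actinin, showed the same contrast. The fast form Myoz1 was counted at 104, 173 and 104 CPM among controls and 294, 143 and 302 among mutants, and the slow and cardiac form Myoz2 at 125, 155 and 128 CPM among controls and 202, 125 and 199 among mutants. Their log2 fold changes were 0.96 ± 0.34 and 0.37 ± 0.20. Ttn, the elastic spring of the sarcomere, was counted at 476, 1225 and 408 CPM among controls and 1340, 1081 and 1188 among mutants, and control E434 lay above 2 of the mutants. Des, the muscle intermediate filament, Myot and Ldb3, which bind alpha-actinin, had log2 fold changes of 0.56 ± 0.25, 0.56 ± 0.29 and 0.36 ± 0.25, with overlapping groups.

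Among the thick filament genes, Mybpc2 (ENSMUSG00000038670.11, chr7:44501699-44524656) had the largest fold change of all 40. This fast form of myosin binding protein C was counted at 2.62, 8.65 and 3.26 CPM in E420, E434 and E435 and at 38.0, 4.69 and 37.5 CPM in E423, E433 and E440. The level in E423 and E440 was 12.8 times that in E420 and E435, while E433 lay below E434 and within the control range, and the log2 fold change of 2.46 ± 0.84 had an edgeR adjusted p of 0.421. Per kilobase of exon the slow form Mybpc1 was far more abundant, with a mean level of 247.4 against 1.34 RPKM in the controls and 379.3 against 7.397 RPKM in the mutants. Mybpc1 was counted at 855, 1647 and 858 CPM among controls and 2006, 1186 and 1960 among mutants, with a log2 fold change of 0.62 ± 0.33. Among the light chains the ventricular and slow form Myl2 (ENSMUSG00000013936.12, chr5:122100951-122113472) had another order of libraries than its fast partner. Myl2 was counted at 45.6, 35.0 and 47.1 CPM among controls and 78.8, 59.2 and 78.6 among mutants. It was lowest in E434 and higher in every mutant than in every control, with the smallest edgeR adjusted p of the 40 (0.273) and a log2 fold change of 0.76 ± 0.16. Mylpf was counted at 2922, 3632 and 2990 CPM among controls and 4975, 3036 and 5029 among mutants, for a log2 fold change of 0.45 ± 0.23, with E433 inside the control range. Myl1 had a log2 fold change of 0.40 ± 0.25. Myl3, the slow and ventricular essential light chain, ran from 115 to 133 CPM over the 6 libraries. Myl4, the atrial form that is also made in fetal muscle, was counted at 557 to 606 CPM among controls and 607 to 617 CPM among mutants. The groups for Myl4 did not overlap, but by a margin far smaller than the spread of the controls, and the log2 fold change was 0.07 ± 0.09. Mybph, related to the binding proteins, was the 1 gene lower in E423 and E440 (57.3 and 58.0 CPM) than in E420 and E435 (63.2 and 63.0 CPM), and E434 and E433 stood at 70.1 and 69.0 CPM.

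The calcium genes repeated the contrast between fast and slow forms. Casq1, the calsequestrin of fast fibres, was counted at 87.1, 169 and 93.4 CPM among controls and 279, 128 and 276 among mutants, for a log2 fold change of 0.97 ± 0.38. Casq2, the cardiac and slow form, was counted at 629, 844 and 635 CPM among controls and 957, 715 and 952 among mutants, for a log2 fold change of 0.32 ± 0.18. For both genes the order of the libraries was the stepped one. Atp2a1, the fast SERCA pump, stood at 312, 611 and 311 CPM among controls and 829, 479 and 822 among mutants, for a log2 fold change of 0.79 ± 0.34, and the pump of slow fibres and heart, Atp2a2, at 323, 457 and 322 CPM among controls and 384, 404 and 381 among mutants. The log2 fold change of Atp2a2 was 0.09 ± 0.15 and changed sign when libraries were left out in turn and with muscle markers as covariate. The release channel Ryr1 and its voltage sensor Cacna1s had log2 fold changes of 0.43 ± 0.26 and 0.37 ± 0.24, and Ryr1 was highest in E433, at 269 CPM. Pvalb was at the edge of detection, with 14, 24 and 14 counts in the controls and 62, 6 and 86 counts in the mutants. E433 held the fewest and E423 and E440 the most, and the log2 fold change of 1.57 ± 0.82 rested on these few counts.

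Of the enzymes, Ckm, the muscle creatine kinase that regenerates ATP, was counted at 919, 1413 and 966 CPM among controls and 2218, 1167 and 2178 among mutants, and Pygm, the muscle glycogen phosphorylase, at 208, 411 and 207 CPM among controls and 626, 320 and 603 among mutants. E433 lay below E434 for both genes. Their log2 fold changes were 0.75 ± 0.30 and 0.91 ± 0.37, with edgeR adjusted p-values of 0.454 and 0.464. Myoglobin, the oxygen store of muscle and here among the genes shared by fibre types, had no such fold change. Mb was counted at 6.97, 6.73 and 6.08 CPM among controls and 6.45, 5.08 and 6.26 among mutants, for a log2 fold change of −0.15 ± 0.15 with overlapping groups.

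When the genes were taken by fibre type, the fast list had the higher median. All 11 fast genes had a log2 fold change above 0, with a median of 0.79, and 5 had an unadjusted p under 0.05. Of the 14 slow or cardiac genes 11 were above 0, with a median of 0.23, and 2 had an unadjusted p under 0.05. The 15 shared genes had a median of 0.55, with 13 above 0. The stepped order was found in 9 of the 11 fast genes and in 4 of the 14 slow or cardiac genes. Genes of 1 list come from the same fibres and libraries and are not replicates, so the lists were not tested against each other.

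**Figure D3:**
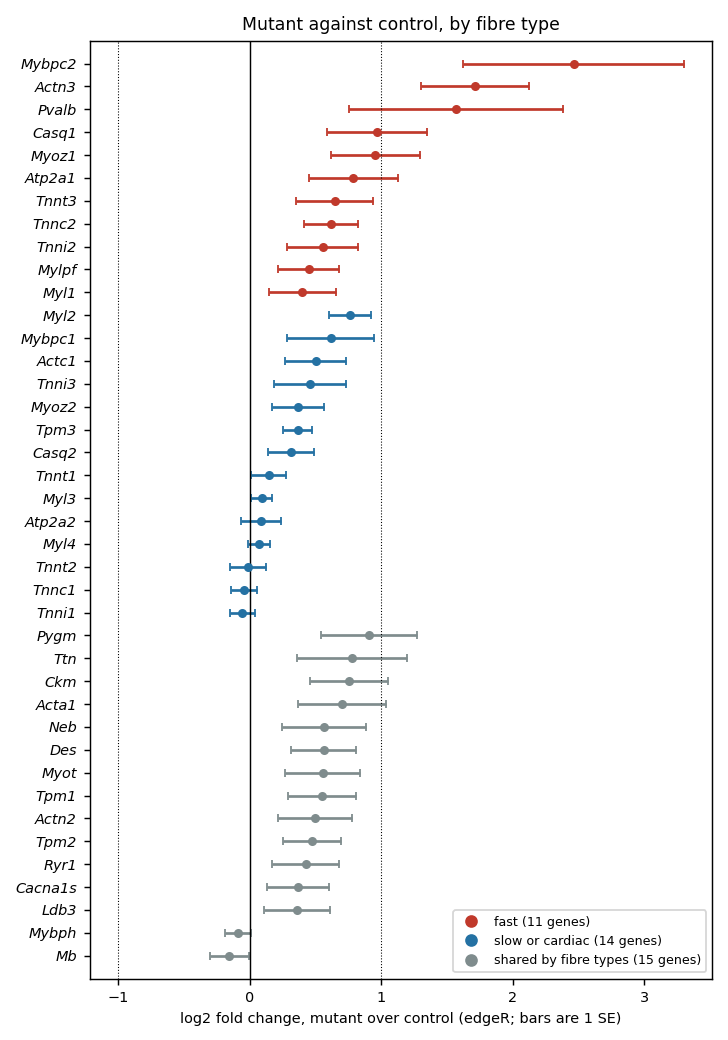
Log2 fold change of each gene, mutant over control, with 1 SE (bars), grouped as fast, slow or cardiac, and shared. Dotted lines mark a log2 fold change of 1 either way. All 11 fast genes lie above 0, and Tnnt2, Tnni1 and Tnnc1 are slow or cardiac genes that lie just below it.

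The ratio of a fast gene to its slow or cardiac partner was next taken within each library, on counts per kilobase, for 12 pairs. Some partners, such as Atp2a2 and Tpm3, are also made outside muscle, and the part of muscle content in the ratios was not tested. Among the controls, the ratio was higher in E434, whose summed muscle level was the highest of them, than in E420 and E435 for 11 of the 12 pairs. Acta1 and Tpm1, which fast and slow fibres share, stood here against Actc1 and Tpm3. Actn2, also shared by the fibre types, stood against the fast Actn3, so that ratio is of a fast to a shared gene. The log2 ratio was higher on average in the mutants for 11 of the 12 pairs, with a median difference of 0.57. For 3 pairs all mutants lay above all controls. An exact 2-sided permutation test over the 6 libraries, which cannot go below 0.1 with 3 against 3, gave p = 0.1 for these and an adjusted p of 0.3 over the 12 pairs, and adjusted p-values ran from 0.3 to 0.5. The ratio of Actn3 to Actn2 was 0.0313, 0.0270 and 0.0359 in E420, E434 and E435 and 0.0800, 0.0415 and 0.0823 in E423, E433 and E440. Mutant E433 lay just above the highest control, and the mean log2 ratio went from −5.002 ± 0.206 to −3.946 ± 0.559 (SD, n = 3 each), a difference of 1.06 that the exact test could not place past 0.05. The ratio of Myoz1 to Myoz2 was 1.504, 2.02 and 1.47 in the controls and 2.63, 2.07 and 2.75 in the mutants, so that E433 and E434 were nearly level. The ratio of Tnnc2 to Tnnc1 was 0.308, 0.365 and 0.267 in the controls and 0.576, 0.377 and 0.550 in the mutants. On the TPM scale the same ratio was 3.29 to 4.22 in the controls and 4.18 to 6.95 in the mutants, so there the fast troponin C outweighed the slow one in every library and the groups overlapped.

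The other pairs overlapped. The ratio of Mybpc2 to Mybpc1 was 0.00386, 0.00659 and 0.00478 in the controls and 0.0237, 0.00497 and 0.0240 in the mutants, the largest mean difference in log2 ratio (1.51), but E433 lay below E434. The ratio of Atp2a1 to Atp2a2 was 1.69, 2.34 and 1.69 in the controls and 3.77, 2.08 and 3.78 in the mutants, and that of Casq1 to Casq2 was 0.194, 0.281 and 0.206 in the controls and 0.409, 0.252 and 0.407 in the mutants. The pair of light chains Mylpf and Myl2 was the exception, with a mean difference of −0.34. Its ratio was highest in control E434, at 190.3, lowest in mutant E433, at 94.1, and between 115.9 and 117.6 in the other 4 libraries. For the actins, the ratio of Acta1 to Actc1 was 1.70 to 1.96 in the controls and 1.69 to 2.27 in the mutants. E423 and E440 had the highest ratios of the 6 libraries in 11 of the 12 pairs, and E433 lay below E434 in 9. On the TPM scale the mean difference was again above 0 for 11 of the 12 pairs, and the groups were apart for 2, the pairs of Actn3 and of Myoz1.

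**Figure D4:**
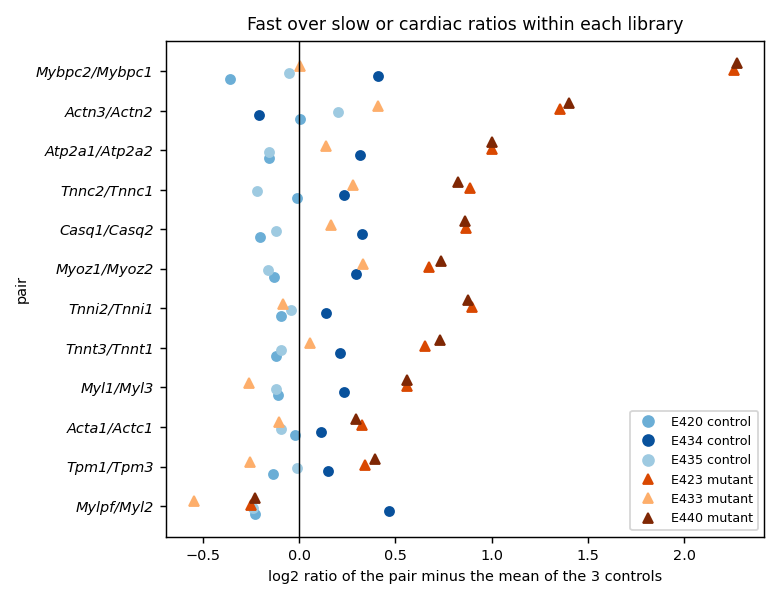
Log2 ratio of each pair, mostly fast over slow or cardiac, in each library, minus the mean of the 3 controls. Circles are controls and triangles mutants. E423 and E440 lie farthest to the right in 11 of the 12 pairs, mutant E433 lies to the left of control E434 in 9, and for Mylpf over Myl2 control E434 is farthest right.

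Other genes of the same apparatus, taken from lists chosen by function, mostly had fold changes of the same sign. Of 39 further sarcomere and excitation genes 0 were called higher or lower by edgeR, 37 had a log2 fold change above 0, and the median was 0.39. Over all genes tested 51.2% were above 0. DESeq2 called 1 of them higher, Xirp2, an actin-binding protein (log2 fold change 1.34, adjusted p = 0.0246), where control E434 lay above mutant E433. Of 13 further muscle enzymes 0 were called by edgeR, all 13 were above 0, and the median was 0.56. DESeq2 called 3 of these higher, where it called 1.33% of all genes higher. Cox7a1, a subunit of cytochrome oxidase, was counted at 3.92, 5.05 and 3.73 CPM among controls and 19.3, 6.38 and 22.4 among mutants (DESeq2 log2 fold change 1.93, adjusted p = 0.000291). Whether its reads came from muscle or from the brown fat whose markers are summed below was not tested. Phkg1, of muscle phosphorylase kinase, and Ckmt2, the mitochondrial creatine kinase of muscle, had DESeq2 log2 fold changes of 1.14 (adjusted p = 0.00341) and 1.17 (adjusted p = 0.0194). For Cox7a1 and Phkg1 every mutant lay above every control, while for Ckmt2 E433 lay below E434. In the first list 24 genes had the stepped order of libraries, and in the second 11, where 3.71% of all genes had it. The summed level of 12 defining markers of skeletal muscle, among them the fetal and embryonic myosin heavy chains Myh8 and Myh3, was 4314, 8205 and 4244 CPM among controls and 10220, 6389 and 9792 among mutants, the same stepped order, and none was at 0. Most of this sum was Myh3 and Myh8, at 2349 and 1103 CPM in E420 and 4406 and 4868 CPM in E423. Within that list 6 of the 12 genes had a log2 fold change above 0 and 6 below, and only 2 had the stepped order. E423 and E440 lay above E420 and E435 for 6 of the 12 and below them for 6. Myod1, a factor that commits cells to muscle, was counted at 71.2, 75.5 and 73.3 CPM among controls and 52.8, 68.7 and 50.9 among mutants, and Myog, which drives differentiation, at 294, 319 and 302 CPM among controls and 242, 334 and 239 among mutants. Myf6, another myogenic factor of the list, went the other way. It was counted at 35.55, 49.97 and 36.94 CPM among controls and 62.56, 51.09 and 63.63 among mutants. Of the markers that define cardiac tissue, some were near 0 and others were not. The summed level of the 12 heart markers was 73.5 to 156 CPM among controls and 108 to 144 CPM among mutants, most of it Myh6, at 62.7 to 146.9 CPM in the 6 libraries. Gata4 was counted at 1.66 to 2.37 CPM and Tbx5 at 0.564 to 4.97 CPM, while Nppa, Nppb and Nkx2-5 had at most 0.139 CPM in any library and Nppa and Nppb had no count in 1 library each. The smooth muscle markers summed to 573 to 701 CPM among controls and 647 to 651 CPM among mutants and did not follow the stepped order. The 8 brown fat markers summed to 27.2, 47.4 and 25.6 CPM among controls and 150.5, 48.2 and 149.7 among mutants, and the 7 tendon markers to 499, 1136 and 508 CPM among controls and 274, 566 and 267 among mutants. Among these markers DESeq2 called the fat genes Adipoq, Plin1, Cidea and Ucp1, the keratinocyte gene Flg and the hepatocyte gene Serpina1a higher. It called the tendon genes Mkx, Kera and Tnmd lower. Of all genes it called 1.33% higher and 0.459% lower, and edgeR called 0 of these markers. Flg was counted at 546.3 and 481.4 CPM in E423 and E440 but at 0.116 CPM in E433. Cidea stood at 7.355 CPM in E433, below the 10.35 CPM of control E434. The 9 hepatocyte markers summed to 641.5 CPM in E433, against 30.8 to 51.3 CPM in the other libraries. The part of these cell types in the differences between libraries was not tested.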

How the data were processed

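Rib cages of 6 embryos at 16.5 dpc were dissected by the authors, cleaned of connective tissue and used for stranded mRNA libraries read from both ends at 42 bases. The authors deposited raw read counts per gene, made with HISAT2 2.1.0 and featureCounts 1.6.0 on GRCm38, in which each end was counted separately and strand was not used, so that reads in exons of overlapping genes are lost and near-identical copies are uncertain. The authors also deposited expected counts and TPM values from STAR 2.7.6 and RSEM 1.2.31, and tables of their own DESeq2 1.26.0 comparisons, which were not used, including 12 columns of values per sample. Symbols came from GENCODE and were found for 55141 of 55487 gene IDs.

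Here the counts of the 26596 genes with at least 10 counts in all were normalized by the TMM method and entered into the quasi-likelihood test of edgeR 4.0.16 in R 4.3.3, with Benjamini-Hochberg adjustment over all of them and limits of 0.1 on the adjusted p and 1 on the log2 fold change. A CPM of 0.0618 to 0.0763 corresponded to 3 counts, a floor that covers counting error only. Paralogue ratios used counts per kilobase of exon with 0.5 counts added and an exact permutation test of the 20 splits. TPM ratios used 0.01 TPM added. RSEM expected counts were rounded to whole numbers for edgeR. On simulated data over 26106 genes, edgeR recovered 71 of 100 genes at a log2 change of 1.5 and 98 of 100 at 2, with 15 others called. DESeq2 1.42.0 recovered 76 and 97, with 50 others. The simulated libraries had the same dispersion for all genes, with no close pairs and no library standing apart. These rates therefore do not give the power of the comparison of the embryos.

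The 40 genes and all lists were chosen by function with earlier results of these data known. All 40 are named, with Foxc1 and Foxc2, list genes and markers that DESeq2 called, and markers of cell types whose level moved with them. Nothing says that the embryos come from separate litters, so p-values measure the spread between these samples. Embryo numbers do not pair the groups. Alternatives were DESeq2's size factors and Wald test, a robust empirical Bayes step, other filters and limits, the RSEM counts, marker lists as covariates and leaving out libraries. Summing the close libraries and using TPM ratios were chosen after seeing the data. Proteins were not analysed here.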

Additional observations from a re-analysis of the deposited data

How the results depend on the processing

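No gene of the 40 was called lower under any alternative run. None was called higher with DESeq2's size factors in edgeR, the robust step, filterByExpr, without a filter on low counts, with RSEM expected counts, either covariate, the close libraries summed or stricter limits. The number called higher was 1 with the DESeq2 Wald test, 14 with both E434 and E433 left out, and 0 to 6 when libraries were left out in turn (6 without mutant replicate 2, E433, and 1 without control replicate 2, E434). The number with groups apart was 4 to 31 when libraries were left out in turn. Without both it was 35, with mutants above for 34 and below for 1, where 30.3% of all genes tested had mutants above. Groups of fewer libraries come apart more readily, and the shares over all genes are not given for libraries left out in turn. The fast median was 0.62 to 1.19 in turn, 1.41 without both and 0.50 with the close libraries summed. The slow or cardiac median, 0.23 with all libraries, was 0.15 to 0.31 in turn and 0.12 with the close libraries summed. The median paralogue difference was 0.45 to 0.78 in turn, 0.90 without both and 0.56 on TPM. The cause of these changes was not tested.

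Signs changed for genes near 0. When libraries were left out in turn, Tnnt2 ran from −0.133 to 0.068, Tnni1 from −0.100 to 0.013, Tnnc1 from −0.114 to 0.021 and Atp2a2 from −0.006 to 0.274. Tnnt2 was at 0.090 with the cartilage list as covariate and at 0.001 with close libraries summed, Tnnc1 at 0.002 both with E434 and E433 left out and with the cartilage covariate, and Atp2a2 at −0.008 with the muscle markers as covariate. No paired analysis was possible because the embryo numbers and labels do not link a control to a mutant. With 3 embryos a group, each group holding 2 close libraries and 1 that stood apart, the SE of the log2 fold changes ran from 0.077 for Myl3 to 0.839 for Mybpc2.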
